A study of Mus musculus with 12 samples.

Results

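The 8 adult left ventricles in which Nkx2-5 had been deleted before birth, taken as 1 group irrespective of the stage of deletion, were compared with the 4 control left ventricles of the same array series, so that 8 of its 12 arrays make up the deleted group. Members were chosen by genotype alone. All mice carried floxed Nkx2-5 alleles (Floxed-Nkx2-5-ΔNeo). The deleted mice also carried Cx40-creERT2, a tamoxifen-inducible Cre recombinase placed at the connexin 40 locus (Gja5) that is active in the trabecular myocardium of the embryo. In 4 of them, called TrbE10, tamoxifen was given to the pregnant mother at E10.5 and E11.5, while trabeculae form, and in the other 4, called TrbE14, at E13.5 and E14.5, during compaction. Each array held RNA from the left ventricular wall with its apex, without the septum, of 1 mouse aged 6 months. Control mice were littermates without the Cre according to the methods, by which their mothers too would have been given tamoxifen. According to the labels they received no tamoxifen, so the sources differ. The Cre allele with its connexin 40 insertion and, by the labels, tamoxifen itself therefore cannot be told apart from the loss of Nkx2-5 in this comparison. Litters are not given in the labels, and recombination was limited to cells that had an active Cre at the time of injection.

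Nkx2-5 is a homeodomain transcription factor that binds a short NK2 element in DNA and acts with Gata4 and Tbx5 on the genes of working and conducting cardiomyocytes. Trabeculae are the muscular ridges of the embryonic ventricle, which are later incorporated into the compact wall and give rise to the Purkinje fibre network, and a persisting excess of them is the hallmark of non-compaction cardiomyopathy. An adult left ventricle under strain commonly returns to genes of the fetal or atrial programme, gains extracellular matrix and gains macrophages, and the groups of genes below follow those roles.

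Signals of the one-colour arrays are given on the log2 scale after quantile normalization, and a difference of 1 on that scale is a doubling of signal. Of 24593 probes that passed a filter on signal above background, the brightest probe of each of 18021 gene names was taken, and a gene was called when its adjusted p in limma was under 0.05. The 75th percentile of the processed signal ran from 195 to 250 in the control arrays and from 200.3 to 246 in the deleted ones, and 22888 to 25257 and 23576 to 26155 probes lay well above background, respectively. Signal from Y-linked genes marked 1 of 4 control mice and 5 of 8 deleted mice as male. Control and TrbE14 arrays shared 1 slide and the TrbE10 arrays filled the other, so that slide and early deletion cannot be told apart. None of 8 markers of ventricular cardiomyocytes was called (median change -0.01) or had an unadjusted p under 0.05, and of 6 genes of other tissues Alb, Myh4, Sftpc and Umod stayed at background while Apoa2 and Insl3 were tested and not called.

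Nkx2-5 itself was lower in every deleted heart. The control arrays read 11.95, 12.23, 11.93 and 11.89, and the lowest, median and highest of the 8 deleted arrays were 11.12, 11.30 and 11.67. The groups did not overlap, with SDs of 0.15 (n = 4) and 0.21 (n = 8). The loss was thus partial, 1.54-fold (log2 change -0.62 ± 0.12, SE, adjusted p = 0.0216), in RNA of a whole ventricular wall. The probe lies at chr17:26975621-26975680 (mm9, from the array's own annotation), and whether that stretch is removed from the floxed allele is not given in the sources used here. The call was kept in 9 of 12 fits that each left out 1 array. It was lost with slide as a block, a fit whose change is that of TrbE14 over control (-0.59, adjusted p = 0.106). The TrbE10 and TrbE14 means differed by -0.06, 95% interval -0.38 to 0.25. Gja5, the connexin gene that hosts the Cre, read 7.57, 7.09, 8.83 and 7.78 in controls against 6.77, 7.24 and 8.16 as lowest, median and highest in the deleted hearts. Those ranges overlapped, with a log2 difference of -0.56 ± 0.30 (adjusted p = 0.355).

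Across the transcriptome 377 genes (2.09%) were called, 265 (1.47%) of them higher in the deleted hearts and 112 (0.621%) lower, so that 70.3% of the calls were increases. An unadjusted p under 0.05 was reached by 3294 genes. The median change over all 18021 genes was -0.03 and the median size among called genes was 0.82 on the log2 scale. At least a 2-fold change was seen in 129 called genes, 111 higher and 18 lower. The groups were fully separate, with every deleted array above or every one below all controls, in 778 genes (4.32%), and in 332 of the 377 called genes. Of the called genes, 30 were not above background in any control array and 7 in none of the deleted arrays. The stage of deletion as a term in the fit gave 391 calls, of which 341 were shared with the 377.

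The size of this set depended on which hearts were used and on single arrays. With slide as a block the change is that of TrbE14 over control, since every TrbE10 array was on the other slide. That fit, in which TrbE10 adds only to the estimate of spread, called 119 genes (96 higher, 23 lower), 108 of them among the 377. The same contrast without the TrbE10 arrays, within the 1 slide that held both groups, called 116. TrbE10 against control gave 220. With sex as a covariate 530 genes were called, 328 of the 377 among them. Leaving out controls 1 to 4 in turn gave 210, 236, 171 and 191 calls, and leaving out TrbE10 4 gave 235, while without the other deleted arrays the count ran from 280 to 496. A core of 127 genes was called in every one of these 12 fits, 106 higher and 21 lower.

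**Figure D1:**
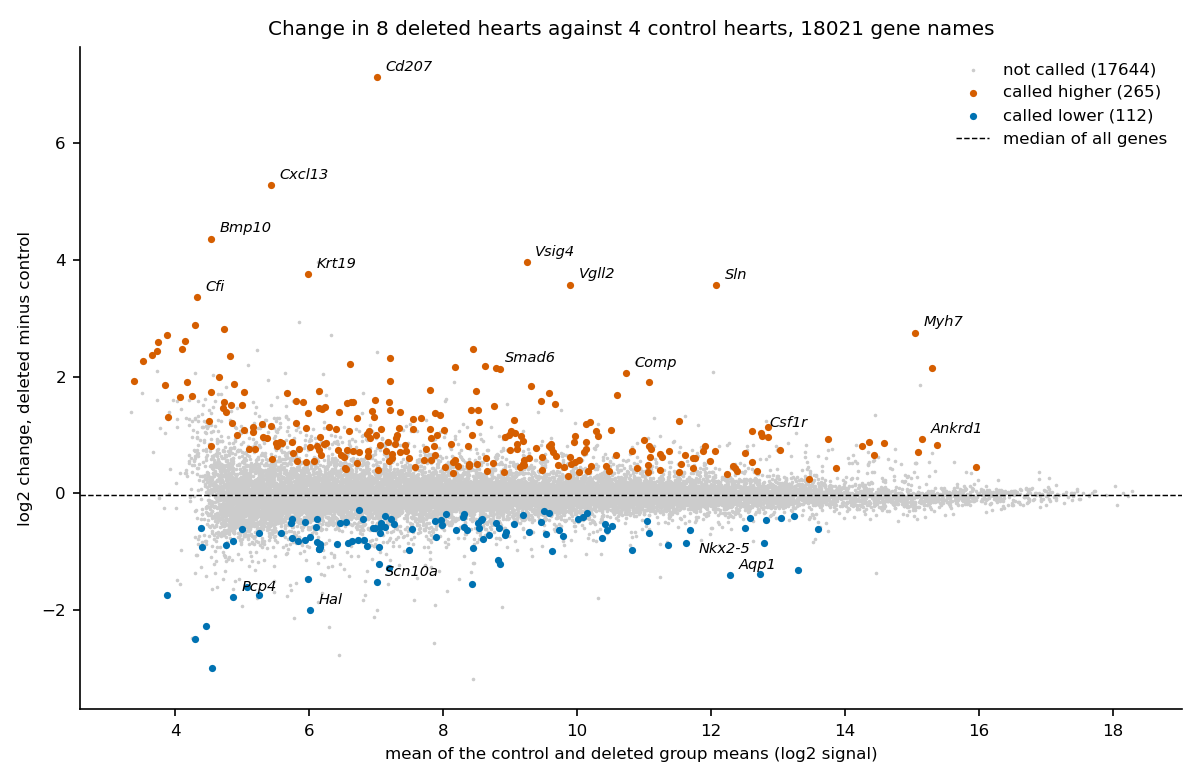
Log2 change of deleted over control hearts (vertical axis) against the mean of both groups' log2 signal (horizontal axis), 1 point per gene for 18021 genes, with called increases in orange, called decreases in blue and a dashed line at the median of all genes. The 265 called increases outnumber the 112 called decreases and reach farther from the line, up to Cd207 at the top.

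The 12 named increases with the largest measured differences are ranked partly by genes at background in controls, whose change is given as a bound. The leading gene, also by its bound, was Cd207, which encodes langerin, a lectin of Langerhans cells and some other phagocytes. Its signal was not above background in any control array (4.33, 3.47, 3.09 and 2.93), whereas the deleted arrays had 10.13, 10.41 and 11.18 as lowest, median and highest. The increase was at least 65.2-fold (adjusted p = 5.02e-08). A bound of this kind sets the mean of the higher group against a floor, which on each array of the other group was the lowest signal of any probe well above background or, if higher, the signal of the gene itself. It holds only for the processed signal used here, and other background treatments could give a change below it. Cd207 rose 45.9-fold in the authors' normalized values and 18.9-fold with normexp correction. Vsig4, a complement receptor of resident macrophages, was measured on both sides, with 7.09, 7.38, 7.37 and 7.25 in controls and 10.84, 11.18 and 11.65 in deleted hearts. Every deleted heart lay more than 3 log2 units above every control, a 15.5-fold increase (log2 change 3.95 ± 0.15, adjusted p = 5.02e-08). Cxcl13, a chemokine that attracts B cells, rose from background in every control (3.69, 2.89, 2.28 and 2.30) to 7.48, 7.94 and 8.95, at least 12.3-fold (adjusted p = 4.29e-06). Cfi, the serine protease complement factor I, rose at least 2.96-fold (adjusted p = 4.29e-06).

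Bmp10, a ligand of the BMP family made by trabecular cardiomyocytes of the embryo and by adult atrial myocardium, was at background in all controls (2.36, 2.36, 2.35 and 2.37). The deleted hearts gave 5.33, 6.81 and 7.59 as lowest, median and highest, at least 4.86-fold more (adjusted p = 2.74e-05). Vgll2, a cofactor of TEAD transcription factors known from skeletal muscle, had 7.94, 8.45, 8.24 and 7.83 in controls and 10.70, 11.53 and 12.85 in deleted hearts. The groups were well apart, with an 11.9-fold rise (log2 change 3.57 ± 0.37, adjusted p = 3.92e-04). Krt19, a keratin of simple epithelia and mesothelium, had 5.39, 3.38, 3.72 and 3.95 in controls, only 1 of which was above background, and 7.35, 7.69 and 8.84 in the deleted hearts. Its groups were separate (adjusted p = 2.97e-04), and since most controls were at background its change depended on the background correction, with 3.76 ± 0.37 on the log2 scale as processed and 1.78 with normexp. At the low end of the signal range, Mctp1, a membrane protein with calcium-binding C2 domains, rose at least 1.73-fold, Grhl3, a transcription factor of surface epithelia, at least 2.01-fold, and Fam38b, now known as the mechanosensitive channel Piezo2, at least 1.52-fold. In the authors' own normalized values these dim genes were not called, with adjusted p = 0.335, 0.291 and 0.503.

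**Figure D2:**
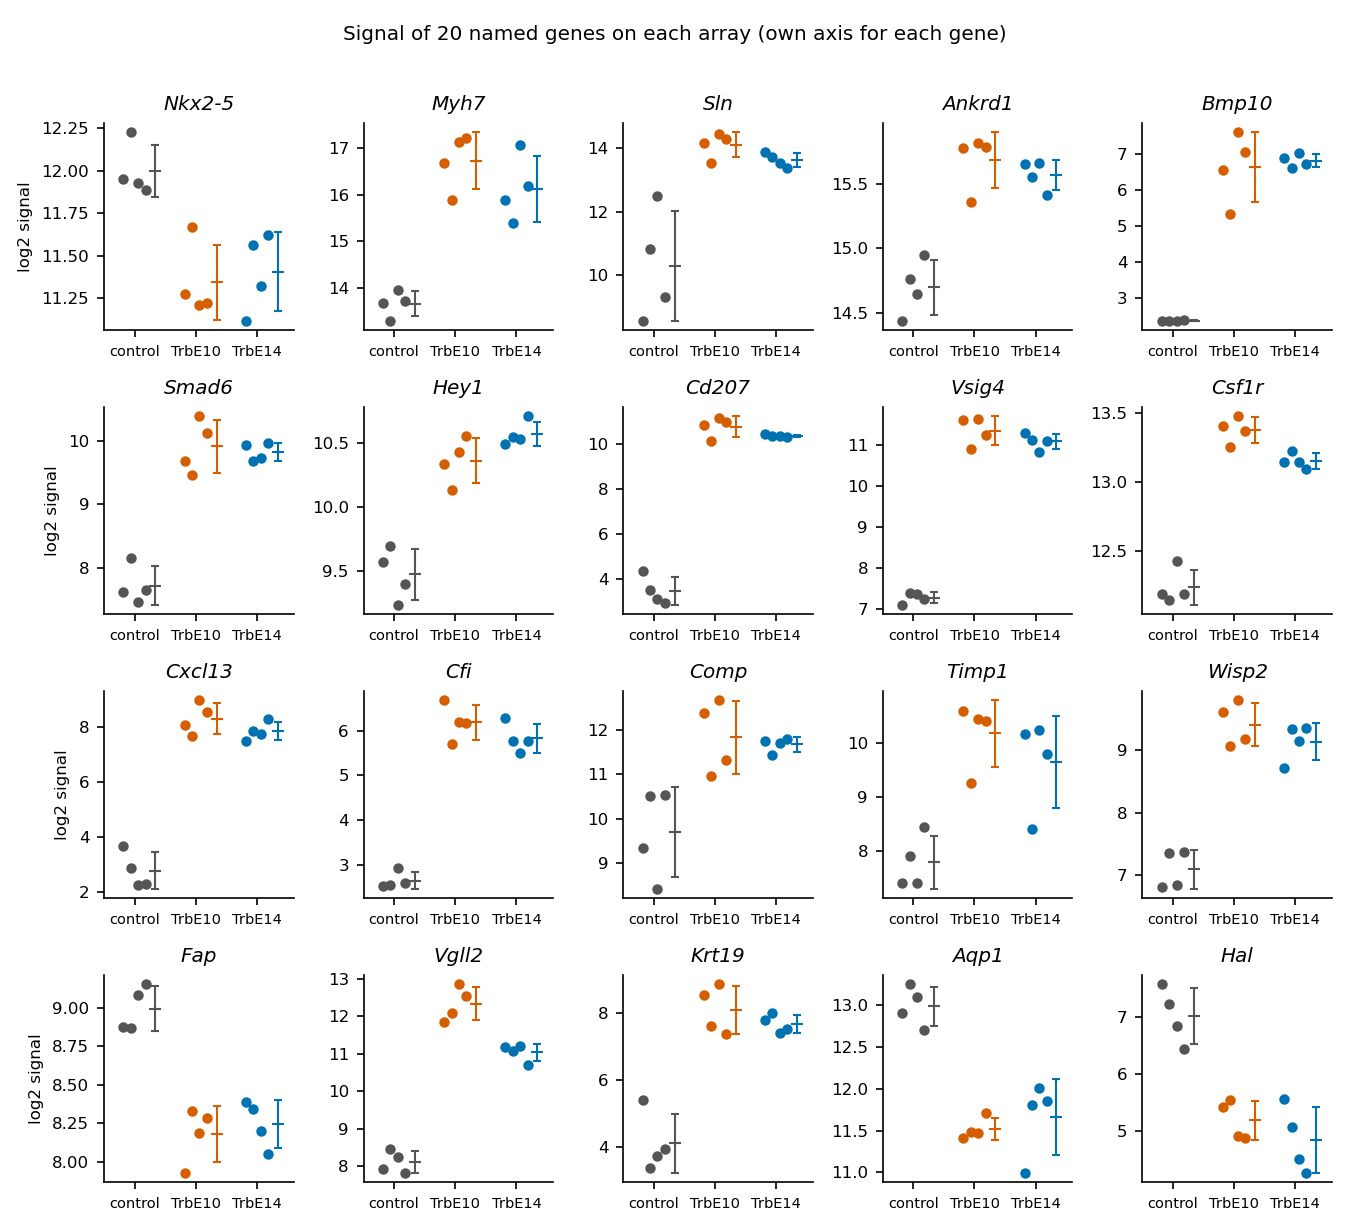
Log2 signal of genes described in the text, 1 point per array, for the 4 control, 4 TrbE10 and 4 TrbE14 hearts, with the mean and SD of each group beside the points and a vertical axis of its own for each gene. For Nkx2-5 the control points lie between 11.89 and 12.23 and all deleted points between 11.12 and 11.67, whereas for Vsig4 the deleted points lie between 10.84 and 11.65, above every control.

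Some fetal, atrial and stress genes of the cardiomyocyte were called higher and others were not called. The gene lists here and below were drawn up with earlier results of these data known. A list's call count beside the share of all genes thus describes the members chosen and tests nothing. Of 19 chamber and stress genes tested, 4 rose and none fell, where 1.47% of all genes rose and 0.621% fell, with a median change of 0.46 against -0.03 over all genes. An unadjusted p under 0.05 was reached by 10 of the 19 and by 3294 of all 18021 genes. SAM called 7 of the 19 and 952 of all genes. Myh7, the slow myosin heavy chain that the mouse ventricle uses before birth, had 13.68, 13.30, 13.96 and 13.73 in controls and 15.39, 16.42 and 17.21 in deleted hearts. All 8 deleted hearts lay above all controls, by 6.74-fold on average (log2 change 2.75 ± 0.33, adjusted p = 0.00131). Sln, which encodes sarcolipin, the atrial inhibitor of the SERCA calcium pump, read 8.58, 10.83, 12.48 and 9.31 in controls and 13.38, 13.79 and 14.42 in deleted hearts. Control values were spread over nearly 4 log2 units, so that the large difference (3.56 ± 0.56) had a wide error and an adjusted p of 0.00705, and 0.0511 with slide as a block. Ankrd1, a titin-associated stress protein, moved little but evenly, from 14.44, 14.76, 14.65 and 14.94 in controls to 15.36, 15.65 and 15.81 in deleted hearts. Its groups did not overlap (log2 change 0.93 ± 0.11, adjusted p = 0.0014). Dkk3, a secreted glycoprotein related to Wnt inhibitors, rose by 1.54 ± 0.29 (adjusted p = 0.0216). The atrial light chains Myl4 (-0.0004 ± 0.59) and Myl7 (-0.06 ± 0.70) and the atrial myosin-binding gene Mybphl (1.26 ± 0.58) were not called, nor were the natriuretic peptide genes. Nppa differed by 1.86 ± 0.46 with overlapping groups (adjusted p = 0.0659) and Nppb by 0.16 ± 0.38 (adjusted p = 0.851), and the skeletal actin gene Acta1 differed by 0.62 ± 0.38.

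The promoters of Myh7 and Bmp10, the sarcomere gene and the growth factor gene of the fetal programme that separated the groups, are shown because Nkx2-5 is a DNA-binding factor. The bases are the 250 upstream of a RefSeq start in GRCm38.p6, in the direction of transcription, with any match to the NK2 letters TNAAGTG (or CACTTNA on the opposite strand) in capitals. The Myh7 stretch is chr14:54994627-54994876 on the minus strand and the Bmp10 stretch chr6:87428744-87428993 on the plus strand.
Myh7 promoter: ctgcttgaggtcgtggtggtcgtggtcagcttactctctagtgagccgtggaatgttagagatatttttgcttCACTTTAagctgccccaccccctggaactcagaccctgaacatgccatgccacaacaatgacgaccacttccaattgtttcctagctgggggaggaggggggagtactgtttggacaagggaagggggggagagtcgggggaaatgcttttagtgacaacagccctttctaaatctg
Bmp10 promoter: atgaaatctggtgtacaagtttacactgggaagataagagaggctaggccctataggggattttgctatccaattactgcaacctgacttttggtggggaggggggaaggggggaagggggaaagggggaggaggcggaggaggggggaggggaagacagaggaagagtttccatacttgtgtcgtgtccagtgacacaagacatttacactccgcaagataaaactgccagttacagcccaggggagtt

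The Myh7 stretch held 1 match, starting 177 bases before the start site, and the window of a second annotated Myh7 start, which begins within that match, held none. No match lay in the Bmp10 stretch. The same letters occur in 10.1% of 32851 RefSeq windows of that length. Only 176 of 265 called increases and 67 of 112 called decreases could be paired with a window, which was too few to compare the sets.

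Limma called none of 20 adult sarcomere genes (median -0.04) and none of 18 calcium handling genes (median -0.08), where 2.09% of all genes were called, so that lists of this size would hold few calls at that share, and an unadjusted p under 0.05 was reached by 1 and 4 of them. A 2-class SAM test, run here on the pooled groups and not as the study ran it, called none either. The paper names Ryr2, SERCA2 and Tnnt2 among deregulated genes, from its arrays and qPCR. Mylk3, the cardiac myosin light chain kinase, had the largest difference of the former at -0.46 ± 0.18 (adjusted p = 0.205), and Jph1, a junctophilin, of the latter at 0.36 ± 0.30. Among 15 cardiac transcription factors Nkx2-5 was the single call. Of 21 conduction and ion channel genes 1 rose, Id2, an inhibitor of basic helix-loop-helix factors used in the conduction system (1.00 ± 0.22, adjusted p = 0.0438). Scn10a, a sodium channel gene first known from sensory neurons, was among the 12 largest decreases. Its controls had 7.68, 7.84, 7.52 and 8.05 and the deleted hearts 5.35, 6.32 and 6.91. No deleted heart reached the lowest control (log2 change -1.52 ± 0.24, adjusted p = 0.00742). Of 11 skeletal muscle genes Vgll2 rose and Tnni2, the fast troponin I, fell (-1.14 ± 0.23, adjusted p = 0.0313), with a list median of -0.01.

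In the BMP and TGF-beta pathway, in which ligands bind paired receptors and signal through Smad proteins, 4 of 31 genes rose and none fell (median 0.14), where 1.47% of all genes rose. Besides the ligand Bmp10, which the study had already reported as raised, these were the inhibitory Smad6, the coreceptor endoglin (Eng) and the target Id3. Smad6 read 7.62, 8.16, 7.47 and 7.65 in controls and 9.45, 9.83 and 10.38 in deleted hearts. More than 1 log2 unit separated the groups, a 4.42-fold rise (log2 change 2.14 ± 0.17, adjusted p = 5.25e-05). Eng rose by 0.72 ± 0.13 (adjusted p = 0.0133) and Id3 by 0.72 ± 0.14 (adjusted p = 0.0254). Smad7, the other inhibitory Smad, differed by 1.27 ± 0.34 and the ligand Tgfb2 by 0.78 ± 0.22, neither of them called (adjusted p = 0.0851 and 0.0966).

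The Notch pathway, a contact signal between cells that patterns trabeculae and vessels, moved in both directions, with 2 of 21 genes higher and 2 lower (median 0.08), where the shares over all genes were 1.47% and 0.621%. The target Hey1, a transcriptional repressor, had 9.57, 9.69, 9.24 and 9.40 in controls and 10.13, 10.51 and 10.70 in deleted hearts, without overlap (log2 change 0.98 ± 0.11, adjusted p = 7.55e-04). The receptor Notch3, mainly of mural cells, rose by 0.39 ± 0.08 (adjusted p = 0.0338). The ligand Dll1 fell by 0.76 ± 0.16 (adjusted p = 0.032) and Dtx1, a ubiquitin ligase that acts on Notch, by 0.82 ± 0.17 with overlapping groups (adjusted p = 0.0311).

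Of 32 genes of tissue macrophages, all of them tested, 8 rose and none fell, where 1.47% of all genes rose, and 25 of the 32 lay above control (median 0.43). Of those that rose, Cd207 was at background in every control and passed the filter only through deleted hearts. An unadjusted p under 0.05 was reached by 22 of the 32 and by 3294 of all 18021 genes. SAM called 13 of the 32 and 952 of all genes. The summed signal of the list ran from 14.94 to 15.16 in the controls and from 15.39 to 15.76 in the deleted hearts on the log2 scale. In RNA from whole tissue more macrophages and more of these transcripts per macrophage cannot be told apart, and the list had been drawn up with results of these arrays in view. Csf1r, the receptor for the growth factor on which macrophages depend, had 12.19, 12.15, 12.43 and 12.19 in controls and 13.10, 13.24 and 13.48 in deleted hearts. Its groups did not overlap, and the difference was 1.03 ± 0.09 (adjusted p = 1.05e-04). Another Csf1r probe differed by 1.01 (adjusted p = 0.00131), and a further one by 0.58, which was not called (adjusted p = 0.0761). Trem2, a lipid-sensing receptor of phagocytes, read 7.64, 7.34, 8.06 and 8.22 in controls and 9.01, 9.20 and 9.73 in deleted hearts, again without overlap (1.43 ± 0.17, adjusted p = 9.54e-04). With Cd207 and Vsig4, the other calls were the complement genes C1qa (0.62 ± 0.12) and C1qc (0.67 ± 0.14), the Fc receptor chain Fcer1g (0.62 ± 0.13) and the platelet factor gene Pf4 (0.43 ± 0.10). Markers by which resident macrophages are often recognised were not called, with differences of -0.08 ± 0.16 for Lyve1, -0.01 ± 0.19 for Folr2, 0.07 ± 0.11 for Mrc1 and 1.05 ± 0.35 for Timd4. None of 10 monocyte, dendritic cell and granulocyte genes was called (median 0.07), 1 of them had an unadjusted p under 0.05, and SAM called 1. Of the 16 genes listed 5 failed the filter and 1 had no probe. In that list Chi3l3, a chitinase-like protein of activated myeloid cells, was at background in every control and missed the threshold (adjusted p = 0.0543). It passed the filter only through deleted hearts.

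Other immune groups held fewer calls each, where 1.47% of all genes rose. Of 8 MHC class II genes 1 rose, the cysteine protease Ctss (0.88 ± 0.17, adjusted p = 0.0264), with a median of -0.15. Of 10 lymphocyte genes 1 rose, the B cell receptor component Cd79b (0.95 ± 0.19, adjusted p = 0.024). Of 10 mast cell genes 4 failed the filter, and Cpa3 passed it only through deleted hearts, so that the values of this list lean towards those hearts. Of the 6 tested 2 rose (median 0.86), and their summed signal went from 8.21 to 8.71 in controls to 8.80 or more in deleted hearts. Cpa3, a mast cell carboxypeptidase, was at background in every control and rose at least 1.86-fold (adjusted p = 0.00171, and 0.285 in the authors' values). Mcpt4, a chymase, had 7.04, 5.91, 4.70 and 6.49 in controls and 7.01, 8.41 and 9.41 in deleted hearts, with a slight overlap (2.33 ± 0.48, adjusted p = 0.0305). Among 16 complement genes 4 rose and none fell (median 0.27, against 1.47% of all genes higher), among them Cfi, the regulator Serping1 (0.44 ± 0.09, adjusted p = 0.0358), and the receptor C5ar1. Cfi and C5ar1 passed the filter only through deleted hearts, so that this count leans towards those hearts. The C5ar1 probe was above background in no control and in 4 of 8 deleted hearts, and its call (adjusted p = 0.0497) was lost with normexp correction (adjusted p = 0.2) and in the authors' values (adjusted p = 0.80). Among 22 chemokine and cytokine genes 3 rose (median 0.27, again against 1.47%), Cxcl13, the membrane-bound Cx3cl1 (0.50 ± 0.09, adjusted p = 0.0165) and Cxcl12, which holds immature blood cells in place (0.66 ± 0.14, adjusted p = 0.0332). Cxcl13 passed the filter only through deleted hearts, and 10 of the 33 listed genes failed it, so that this count leans towards those hearts. A second Cxcl12 probe differed the other way, by -0.36, and was not called. Of 21 interferon-inducible genes none was called by limma or SAM (median -0.11), and 2 had an unadjusted p under 0.05, with the antiviral gene Oas2 farthest away (-0.64 ± 0.29, adjusted p = 0.272).

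Most genes of the extracellular matrix list lay above control, while limma called few. An unadjusted p under 0.05 was reached by 25 of its 37 tested genes and by 3294 of all 18021. SAM called 13 of the 37 and 952 of all genes. Of 37 genes 32 lay above control and 4 rose, where 1.47% of all genes rose, with a median of 0.46 against -0.03 over all genes and a summed signal of 17.27 to 17.46 in controls and 17.57 to 17.99 in deleted hearts. Comp, a matrix protein of cartilage and tendon that also occurs in fibrotic tissue, had 9.35, 10.51, 8.41 and 10.53 in controls and 10.97, 11.73 and 12.67 in deleted hearts, above every control despite the wide control spread (2.06 ± 0.41, adjusted p = 0.0254). The proteoglycan decorin (Dcn) rose by 0.44 ± 0.07 (adjusted p = 0.00901), the basement membrane collagen Col4a1 by 0.43 ± 0.10 (adjusted p = 0.0394) and Fbln2, a fibulin, by 0.69 ± 0.15 with overlap (adjusted p = 0.0369). The fibrillar collagens Col1a1 (0.44 ± 0.14) and Col3a1 (0.51 ± 0.17), Postn (1.06 ± 0.30) and Ctgf (1.24 ± 0.51), which are widely used as markers of fibrosis, were not called, with adjusted p = 0.129, 0.161, 0.0953 and 0.232. The macrophage list moved in the same hearts, by the summed levels given above, and its part in the matrix values was not tested.

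Of 21 matrix proteases and inhibitors 3 rose (median 0.14), where 1.47% of all genes did. Timp1, an inhibitor of matrix metalloproteases, read 7.41, 7.91, 7.40 and 8.44 in controls and 8.41, 10.21 and 10.59 in deleted hearts, with 1 control above the lowest deleted heart (2.13 ± 0.38, adjusted p = 0.0152). Adamts2, which trims procollagens, rose by 0.81 ± 0.16 (adjusted p = 0.0254) and Mmp23 by 0.78 ± 0.17 (adjusted p = 0.0401). Of 14 fibroblast genes 3 rose and 2 fell (median 0.24), where 1.47% and 0.621% of all genes did. Wisp2, a secreted protein of the CCN family, had 6.81, 7.35, 6.84 and 7.37 in controls and 8.71, 9.25 and 9.79 in deleted hearts and no overlap (2.17 ± 0.19, adjusted p = 1.03e-04). The homeobox gene Meox1 rose by 1.07 ± 0.15 (adjusted p = 0.00443) and Tcf21, a transcription factor of resident fibroblasts, by 0.99 ± 0.22 (adjusted p = 0.0438). Fap, a cell-surface protease used to mark activated fibroblasts, went the other way, from 8.87, 8.87, 9.08 and 9.15 in controls to 7.93, 8.24 and 8.39 in deleted hearts. No deleted heart reached the lowest control (-0.78 ± 0.10, adjusted p = 0.00179), and the surface glycoprotein gene Thy1 fell too (-0.53 ± 0.10, adjusted p = 0.0197).

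**Figure D3:**
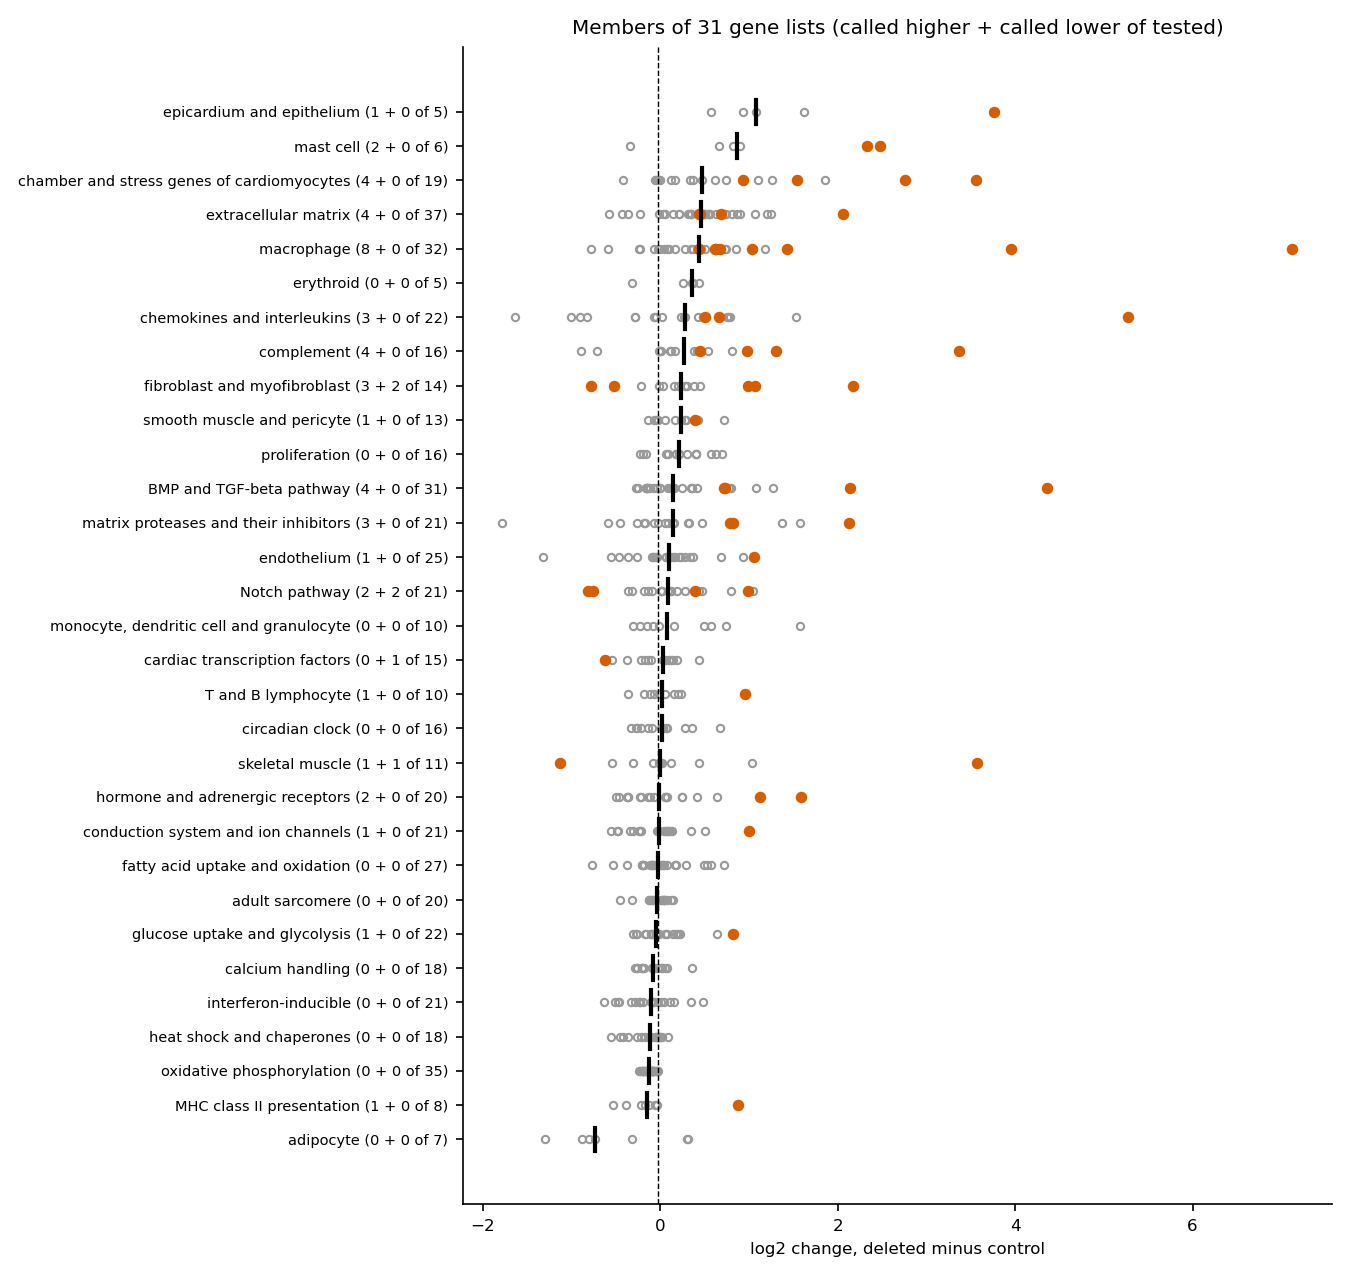
Change of each gene list in deleted over control hearts, with a point per gene on the log2 scale, a black bar at the list's median, called members filled and a dashed line at the median of all genes. The macrophage, chamber and stress, and extracellular matrix lists have medians of 0.43, 0.46 and 0.46, and the adult sarcomere and oxidative phosphorylation lists lie close to 0 at -0.04 and -0.13.

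The endothelial and mural lists held 1 limma call each, too few to set against the share of all genes (1.47% higher). An unadjusted p under 0.05 was reached by 8 of 25 endothelial and 4 of 13 mural genes, and by 3294 of all 18021. SAM called 3 endothelial genes, 1 mural gene and 952 of all genes. The groups were fully separate in 4 endothelial genes and 1 mural gene, and in 4.32% of all genes. Of 25 endothelial genes Vwf, the von Willebrand factor that binds platelets, was the 1 that rose (1.06 ± 0.16, adjusted p = 0.00675), with a second probe of it at 0.30, and the list's median was 0.10. Of 13 smooth muscle and pericyte genes the growth factor receptor Pdgfrb rose (0.39 ± 0.07, adjusted p = 0.0125, median 0.24). Of 20 hormone receptor genes 2 rose (median -0.02), Npr3, which clears natriuretic peptides (1.12 ± 0.20, adjusted p = 0.0167), and Gcgr, the glucagon receptor (1.58 ± 0.30, adjusted p = 0.0216). Of 13 genes of epicardium and epithelium 8 failed the filter. The other 5 all lay above control and Krt19 was called (median 1.07). Krt19 was above background in only 1 control and passed the filter only through deleted hearts, so that the list leans towards those hearts.

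The metabolic lists held few calls, as lists of this size would at the share of all genes (2.09%). None of 27 fatty acid oxidation genes was called (median -0.03), with the largest difference in Hadh, a mitochondrial dehydrogenase (-0.77 ± 0.29, adjusted p = 0.193). All 35 oxidative phosphorylation genes lay below control without a call, at a median of -0.13 and with Atp5o, a subunit of ATP synthase, farthest away (-0.24 ± 0.09, adjusted p = 0.203). The median over all genes was itself -0.03, and -0.07 when arrays were scaled to their 75th percentile. Of 22 glycolysis genes 1 rose, the lactate exporter Slc16a3 (0.82 ± 0.19, adjusted p = 0.0479), with overlapping groups and a median of -0.05. None of 16 proliferation genes (median 0.21), 18 heat shock genes (median -0.12) or 16 clock genes (median 0.02) was called. The largest differences in these lists were those of the mitotic kinase Aurka (0.70 ± 0.33), the heat shock gene Hspa1a (-0.56 ± 0.35) and the clock repressor Bhlhe41 (0.67 ± 0.32). Adipocyte genes had the lowest median, -0.73 over 7 genes, none called, and their summed signal overlapped between the groups. The hormone gene Retn had the largest difference among them (-1.30 ± 0.59, adjusted p = 0.273). No erythroid gene of 5 was called or had an unadjusted p under 0.05 (median 0.36), with the haem synthesis gene Alas2 at 0.43 ± 0.40. An unadjusted p under 0.05 was reached by 4 fatty acid oxidation, 6 oxidative phosphorylation, 3 proliferation, 4 heat shock, 0 clock and 2 adipocyte genes, and SAM called 2 of the fatty acid oxidation genes and none in the other 5 lists.

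The decreases were fewer and smaller. Hal, the histidine ammonia-lyase that opens histidine breakdown, had 7.57, 7.23, 6.84 and 6.44 in controls and 4.26, 4.99 and 5.55 in deleted hearts, with no overlap between the groups and 4 of the deleted hearts above background (4.01-fold lower, adjusted p = 0.00283). Aqp1, the water channel of capillary endothelium and red cells, had 12.91, 13.25, 13.09 and 12.71 in controls and 10.99, 11.59 and 12.01 in deleted hearts. It had the highest signal of the 12 largest decreases and fell 2.63-fold without overlap (-1.40 ± 0.17, adjusted p = 0.00144). Pcp4, a small calmodulin-binding protein known from Purkinje neurons, was at background in every deleted heart and fell at least 2.34-fold (adjusted p = 0.00378). Retnla, a product of alternatively activated macrophages, fell by 1.55 ± 0.32 (adjusted p = 0.0305). Of the remaining named decreases, Apba2, a neuronal adaptor (-1.47 ± 0.33), and Ahrr, the repressor of the aryl hydrocarbon receptor (-1.28 ± 0.20), passed the test (adjusted p = 0.0474 and 0.00794). Duox1, an oxidase that makes hydrogen peroxide, and Upb1, an enzyme of pyrimidine breakdown, passed it too (adjusted p = 0.0347 and 0.0203), but each was above background in only 2 of 8 deleted hearts, so that the sizes (3.33- and 3.04-fold as processed) hang on background. So did Tbc1d10c, an inhibitor of calcineurin signalling (-0.98 ± 0.19, adjusted p = 0.0221), and Slc38a3, a glutamine transporter (-0.97 ± 0.20, adjusted p = 0.0305).

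The stages of deletion were not set apart by any called gene. No gene was called by limma between TrbE10 and TrbE14 (0%), and 1074 (5.96%) had an unadjusted p under 0.05. Among the 377 genes called in the pooled comparison 40 did so. Of the raised ones, TrbE10 was the higher in 29 and TrbE14 in 2, and of the lowered ones TrbE10 was the lower in 6 and TrbE14 in 3. Vgll2 had the lowest p. It was raised by 4.22 in TrbE10 and by 2.93 in TrbE14, a difference of 1.30, 95% interval 0.81 to 1.78 (unadjusted p = 9.75e-05, adjusted p = 0.15). Next came Vav1, an exchange factor of blood cells (0.44, 95% interval 0.23 to 0.66, adjusted p = 0.361), and Abcc3, an organic anion transporter (0.55, 95% interval 0.24 to 0.85, adjusted p = 0.504). The macrophage list had a median change of 0.58 in TrbE10 and 0.28 in TrbE14, with an unadjusted p under 0.05 for the difference in 9 of its 32 genes. The MHC class II list was 0.20 in TrbE10 and -0.51 in TrbE14, with such a p in 7 of 8 genes. All of these differences are also differences between slides. Among called genes the spread within a stage was widest in Gdf3, a ligand of the TGF-beta family, Klra2, a receptor of the natural killer cell family, and Ret, a receptor of glial growth factors. Klra2 was at background in all controls (2.48, 2.45, 2.47 and 2.50) and ranged from 2.65 to 6.03 in the deleted hearts, 5 of which were above background, a rise of at least 1.32-fold (adjusted p = 0.0379). Gdf3 ranged from 2.65 to 5.29 in deleted hearts, 4 of them and no control above background (adjusted p = 0.0434), and Ret, at background in every deleted heart, fell at least 2.09-fold (adjusted p = 0.0163). None of these 3 was called in the authors' values (adjusted p = 0.49, 0.76 and 0.162).

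**Figure D4:**
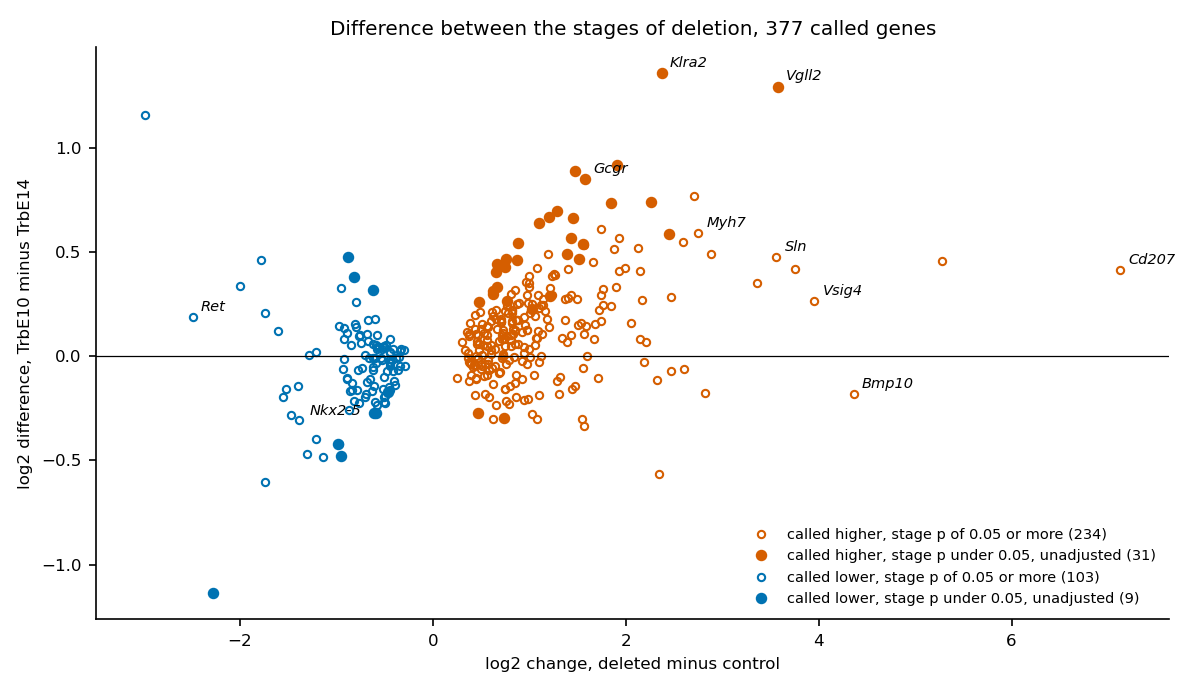
Difference between TrbE10 and TrbE14 hearts (vertical axis, log2) against the change in all deleted hearts over control (horizontal axis, log2), 1 point per called gene for 377 genes, with filled points where the unadjusted p of the difference was under 0.05. Of the 31 filled points among the increases 29 lie above the line at 0, Vgll2 at 1.30 among the highest.

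Of the 67 called genes named by rule, 27 kept their call with slide as a block, where the change is that of TrbE14 over control. They were Cd207, Cxcl13, Bmp10, Vsig4, Krt19, Vgll2, Cfi, Myh7, Mctp1, Grhl3, Fam38b, Hal, Pcp4, Aqp1, Ahrr, Ankrd1, Hey1, Smad6, Dcn, Col4a1, Wisp2, Fap, Meox1, Csf1r, Trem2, Cpa3 and Vwf. In every fit that left out 1 array and tested the gene 29 kept it, namely these without Col4a1 and with Sln, Scn10a and Ret. Fam38b and Ret were tested in 9 of the 12 such fits, having failed the filter in the rest. Every other of the 67 calls was lost without at least 1 array. The size of the change in dim genes also depended on how background was treated: with normexp correction Cd207 rose 18.9-fold, Cxcl13 4.69-fold, Bmp10 2.94-fold, Krt19 3.43-fold, Cfi 1.81-fold, Gcgr 1.63-fold and Mcpt4 2.81-fold, and Hal fell 1.81-fold, Scn10a 1.90-fold, Apba2 1.66-fold, Ret 1.62-fold, Upb1 1.42-fold and Pcp4 1.39-fold, with Duox1 at -0.59 on the log2 scale. With the same correction Mctp1 rose 1.53-fold, Grhl3 1.48-fold and Cpa3 1.43-fold. For Cd207, Cxcl13, Bmp10, Cfi, Ret, Pcp4, Mctp1, Grhl3 and Cpa3 the normexp values lie below the bounds given above.

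**Figure D5:**
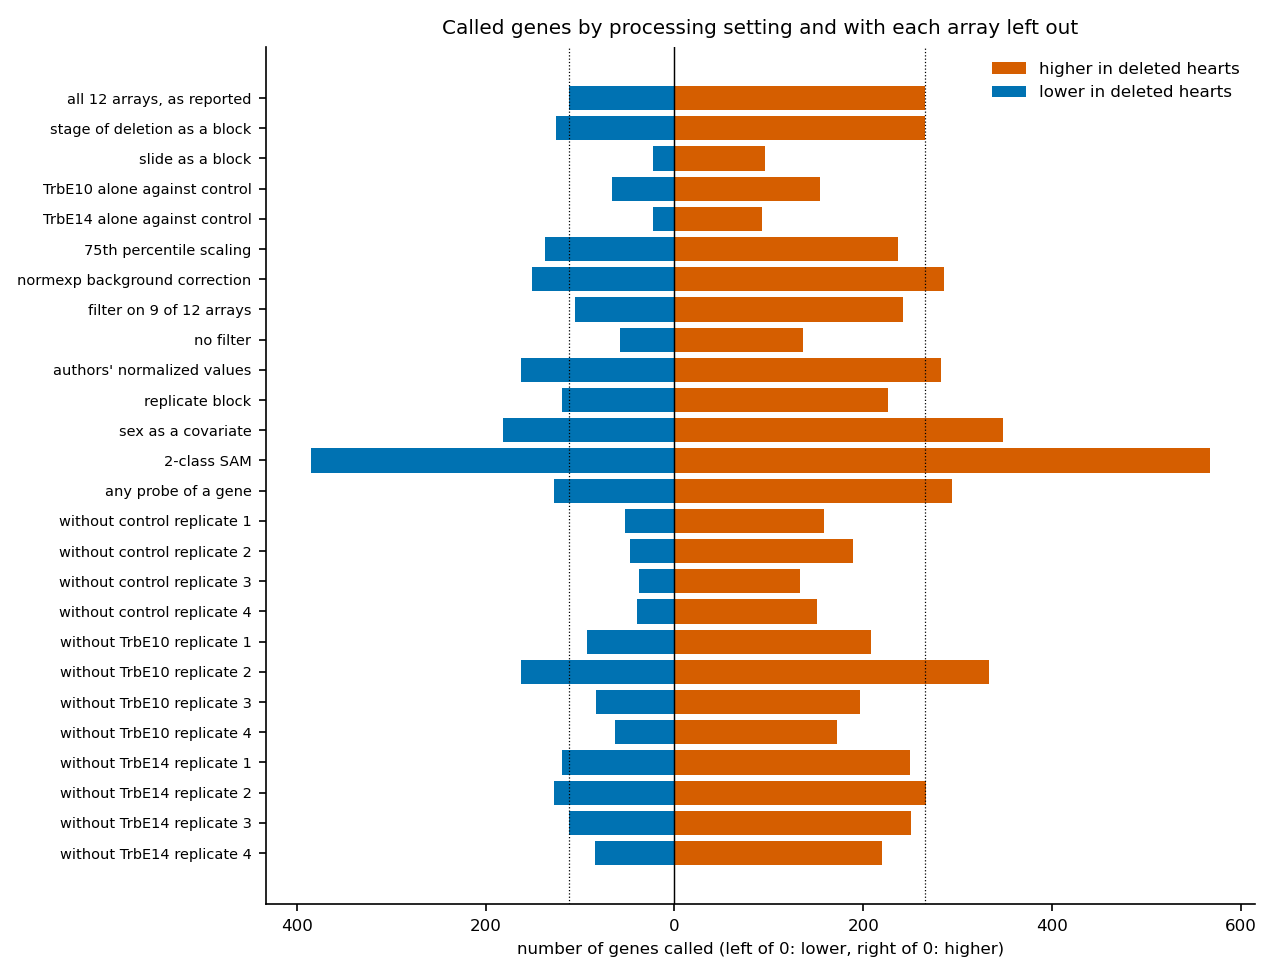
Number of genes called higher (orange, to the right of 0) and lower (blue, to the left of 0) in deleted hearts under each way of processing and with each array left out, with dotted lines at the counts reported. The pooled comparison has 265 and 112, and the fit without control 3 has 133 and 38. The fit with slide as a block, whose change is that of TrbE14 over control, has 96 and 23.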

How the data were processed

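RNA from 1 left ventricle per array was hybridised to one-colour Agilent mouse 8x60K arrays, which the authors read with Feature Extraction 10.5 per the labels and file headers. The deposited processed signal is a linear intensity, background-corrected by that software, for 62976 spots per array. The authors also deposited normalized log2 values, used here as an alternative. From the intensities, spots of control type and outlier spots (93 to 131 per array) were left out, spots of a probe were averaged, log2 was taken and the 12 arrays were quantile normalized. No spot was saturated. A probe was kept if 3 or more of the 4 arrays (75%) of control, TrbE10 or TrbE14 had it well above background. Precision rests on how many arrays each group has, and p-values set a mean difference against the spread between these mice. In the pooled fit that spread also holds any difference between TrbE10 and TrbE14.

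The 8 deleted arrays were tested against 4 controls with limma 3.58.1 in R 4.3.3 (lmFit and eBayes, Benjamini-Hochberg adjustment over 24593 probes), and TrbE10 against TrbE14 in a fit with a mean per group. The array annotation uses mm9. On simulated data of this size the test recovered 75 of 100 genes changed by 1 log2 unit and 91 of 100 changed by 2, with 12 false calls. Alternatives were slide, stage, sex and replicate number as terms, 75th percentile scaling, normexp correction (offset 50), other filters, SAM and leaving out each array.

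Named were Nkx2-5 and Gja5, the 12 largest increases and decreases among called genes with separate groups and a gene symbol, up to 4 called members with the lowest adjusted p of each list (or its largest difference where none was called), the 3 called genes with the lowest p between stages, and the 3 with the largest spread among deleted arrays. The group, lists and rules were chosen with earlier results of these data known. Other genes, namely Nppa, Nppb, Myl4, Myl7, Mybphl, Acta1, Smad7, Tgfb2, Col1a1, Col3a1, Postn, Ctgf, Tcf21, C1qa, C1qc, Fcer1g, Pf4, Lyve1, Folr2, Mrc1 and Timd4, were named after their values were seen.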

Additional observations from a re-analysis of the deposited data

Results flagged for a closer look

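Among 158 combinations of a named gene and a group of arrays, covering 79 genes, 11 had 1 array that stood apart from the rest of its group, where chance sets apart about 1 in 20. Of the deleted arrays, TrbE10 2 had the lowest log2 signal of Bmp10 (5.33) and Notch3 (11.11) and the highest of Ret (4.84), so that its values lay on the control side in each. TrbE10 3 had the highest Trem2 (9.73) and Cx3cl1 (10.47). Of the controls, number 3 had the highest Csf1r (12.43), Cfi (2.92) and Gdf3 (2.93) and the lowest Npr3 (6.37), and number 1 had the highest Grhl3 (3.75) and the lowest Vav1 (7.33). The control values of Cfi, Grhl3 and Gdf3 were not above background.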

How the results depend on the processing

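None of the 79 genes named by rule changed direction under any alternative in which its brightest probe had a value. Less bright probes of Serping1, Slc16a3 and Vav1 rose too but were not called by limma (adjusted p = 0.0531, 0.0658 and 0.0911). The 377 calls (265 higher, 112 lower) fell to 119 (96 and 23) with slide as a block, where the change is that of TrbE14 over control. They fell to 116 (93 and 23) for TrbE14 alone within the shared slide and to 220 (154 and 66) for TrbE10 alone. Without a filter they fell to 194 (136 and 58), where 34844 genes were tested. They rose to 952 (567 and 385) with SAM, and the decreases rose to 182 with sex as a covariate. Increases made up 80.7% of the calls with slide as a block and 59.6% with SAM. Leaving out 1 array gave 171 (without control 3) to 496 (without TrbE10 2) calls, with 133 to 333 higher and 38 to 163 lower. Between stages 0 to 1 genes were called without 1 array and 1 with 75th percentile scaling, in both cases Eps8l1, an actin regulator named after its values were seen. Stage as a block, 75th percentile scaling, normexp, a filter on 9 of 12 arrays, the authors' values and any probe per gene gave 347 to 445 calls. Apart from fewer arrays or more genes tested, the cause of these shifts was not tested.

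Whether the replicate numbers of the labels pair the arrays was not settled, since arrays with different numbers were not compared. Deviations of TrbE10 and TrbE14 arrays with the same number correlated at 0.37, 0.31, -0.01 and 0.48, those with controls at -0.24 to 0.08, and the replicate block gave 345 calls, 279 of them shared. Dim probes limit the sizes: 30 called genes were measured only in deleted hearts.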

Other observations

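The following called genes were chosen after their values were seen and stand as single values, with no test of any group. Sfrp2, a secreted Wnt antagonist, rose from 7.53 ± 0.47 (SD, n = 4) to 9.72 ± 0.59 (SD, n = 8, log2 change 2.19 ± 0.31, adjusted p = 0.00412) and its paralog Sfrp1 by 0.83 ± 0.15 (adjusted p = 0.0148). Outside the matrix list, the adhesion protein Svep1 rose by 1.22 ± 0.13, Loxl3, which cross-links collagen, by 0.99 ± 0.11, Ecm1 by 0.96 ± 0.10, and the heparan sulphatase Sulf1 by 0.72 ± 0.12, with adjusted p = 4.03e-04, 6.18e-04, 3.52e-04 and 0.0121. The paralogous matricellular genes Smoc1 and Smoc2 moved apart, Smoc1 from 5.87 ± 0.13 to 7.44 ± 0.38 (adjusted p = 0.00131) and Smoc2 from 13.22 ± 0.31 to 12.38 ± 0.20 (adjusted p = 0.0112). Myoc, the gene of the secreted glycoprotein myocilin, was among the larger rises outside the named genes (2.47 ± 0.26, adjusted p = 4.98e-04).

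Of genes known from calcium release in muscle, Bin1, which shapes the T-tubules where calcium release begins, rose from 8.67 ± 0.11 to 10.25 ± 0.21 (1.59 ± 0.11, adjusted p = 2.76e-05), and Stim1, the sensor of calcium in the sarcoplasmic reticulum, from 9.76 ± 0.08 to 11.43 ± 0.25 (1.68 ± 0.13, adjusted p = 4.06e-05). Both had non-overlapping groups and neither was in the calcium handling list, in which no gene was called. The neuregulin genes Nrg1 and Nrg4 moved in opposite directions, Nrg1 by 1.11 ± 0.25 and Nrg4 by -0.84 ± 0.17 (adjusted p = 0.0486 and 0.0284). The scavenger receptor gene Msr1, at background in every control, rose at least 2.4-fold (adjusted p = 9.71e-04), and Apoe, the lipid carrier of macrophages and other cells, by 0.71 ± 0.11 (adjusted p = 0.00648). The antioxidant enzyme genes Gpx3 (1.14 ± 0.19), Sod3 (0.61 ± 0.09) and Hmox1 (0.79 ± 0.18) rose, and so did the NADPH oxidase subunits Cybb (0.97 ± 0.20) and Ncf1 (0.75 ± 0.16). Decreases were seen in the enzyme genes Phgdh of serine synthesis (-0.57 ± 0.08), Mmab of cobalamin metabolism (-0.44 ± 0.07) and Sord of the polyol pathway (-0.41 ± 0.09).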
